A study of Mus musculus with 31 samples.

Results

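The transcripts described here are 10 genes of secreted matrix proteins: Tnc, Postn, Thbs4, Cilp, Spon1, Sparc, Bgn, Cpxm1, Abi3bp and Thbs1. They were taken by gene symbol, and all 10 were found among 54456 genes listed for whole tumours and among 12444 genes listed for sorted cells. The names were chosen by their TPM differences between sites, with results of these tables in view. Their differences in whole tumours and in sorted cells are therefore given as a description without a test, and tests are given only for other genes. In sorted cells the members past the threshold used for other genes are counted too, also as a description.

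The tumours were AB1-mCherry, a murine mesothelioma line carrying a red fluorescent protein and sorted for its brightest cells before use, grown for 10 days in untreated female BALB/c mice aged 12 weeks. Tumours were placed at 3 anatomical sites: subcutaneous, peritoneal and pleural. Every group therefore shared line, strain, sex, age and the absence of treatment, and differed by site. Whole tumours gave 16 RNA libraries (subcutaneous n = 5, peritoneal n = 5, pleural n = 6), and mCherry-positive cells without CD45, sorted from such tumours, gave 15 (n = 5 per site). All rest on this single line, and whole tumours hold host cells as well as cancer cells. The titles name separate mice within a group, and 14 mouse names (5 subcutaneous, 4 peritoneal and 5 pleural) occur in both kinds of sample, so sorted cells are not an independent set of animals. Replicate numbers follow these mouse names. For peritoneal whole tumours 2, 3 and 4 the library names of the same samples carry the numbers 3, 4 and 5, so a shared number is uncertain there.

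Matricellular proteins are secreted into the extracellular matrix without being its main structural fibres, and they change how cells adhere, migrate and receive growth factors. Many are scarce in resting adult tissue and abundant in wounds, fibrosis and tumour stroma, where activated fibroblasts are a well-known source. Tnc encodes tenascin C, a multi-armed glycoprotein that loosens adhesion to fibronectin. Postn encodes periostin, which binds integrins and aids collagen assembly and cross-linking. Thbs1 and Thbs4 encode thrombospondins, and thrombospondin 1 is known as an activator of latent TGF-β and an inhibitor of vessel growth. Sparc encodes a collagen-binding calcium-binding glycoprotein, and Bgn encodes biglycan, a small leucine-rich proteoglycan. Cilp encodes a cartilage intermediate layer protein that binds TGF-β1, Spon1 encodes F-spondin, Cpxm1 encodes a secreted carboxypeptidase-like protein, and Abi3bp encodes a matrix protein that binds the SH3 domain of ABI3.

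Expression is in TPM, a transcript abundance scaled to a common library total and to transcript length, so levels of different genes can be set side by side. Means are given with SD. A log2 fold change (log2FC) is the difference between sites in mean log2(TPM + 1), with its standard error (SE) from a limma fit, and it understates the ratio for genes near or below 1 TPM.

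Promoter sequences of Tnc, Postn and Cilp are shown beside that of Sparc as examples. The first 3 were picked because they hold a TATA-like run of letters near the start, and Sparc because it has none and differed little between sites. Cpxm1 and Thbs4, which were also low at serosal sites, have no such run in this window. RefSeq entries (build GRCm38.p6) were matched for 7 of the 10 genes: Tnc, Postn, Thbs4, Cilp, Sparc, Bgn and Cpxm1. Each sequence below is the 250 bases before the transcript start, 5′ to 3′ on the gene's strand. Capitals mark the letters TATANA on the sense strand where they begin 20 to 40 bases before the start.
Tnc, chr4:64046937-64047186, minus strand: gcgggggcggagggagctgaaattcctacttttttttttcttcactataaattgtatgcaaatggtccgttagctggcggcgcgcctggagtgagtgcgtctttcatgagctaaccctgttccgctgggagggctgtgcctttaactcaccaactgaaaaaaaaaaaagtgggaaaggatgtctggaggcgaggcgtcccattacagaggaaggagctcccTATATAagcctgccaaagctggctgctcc
Postn, chr3:54360857-54361106, plus strand: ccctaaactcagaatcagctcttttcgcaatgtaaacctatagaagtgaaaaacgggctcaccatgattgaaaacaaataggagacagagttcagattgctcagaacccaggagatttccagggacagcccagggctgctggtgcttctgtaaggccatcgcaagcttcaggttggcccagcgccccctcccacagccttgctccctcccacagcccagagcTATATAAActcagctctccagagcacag
Cilp, chr9:65264930-65265179, plus strand: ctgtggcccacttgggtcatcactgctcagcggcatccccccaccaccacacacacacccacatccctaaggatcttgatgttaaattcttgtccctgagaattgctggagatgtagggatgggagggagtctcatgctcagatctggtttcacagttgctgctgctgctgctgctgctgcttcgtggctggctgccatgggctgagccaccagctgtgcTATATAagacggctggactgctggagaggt
Sparc, chr11:55420081-55420330, minus strand: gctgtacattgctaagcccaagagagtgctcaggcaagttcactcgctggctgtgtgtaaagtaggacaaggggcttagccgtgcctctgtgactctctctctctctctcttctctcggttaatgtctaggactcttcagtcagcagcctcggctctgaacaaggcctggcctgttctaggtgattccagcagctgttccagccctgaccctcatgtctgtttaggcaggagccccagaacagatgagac

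In Tnc the match TATATA began 29 bases before this start, in Cilp the same letters began 30 bases before it, and in Postn a pair of overlapping matches began 28 and 26 bases before it. Tnc and Postn each have an entry with another start in the same table, without a match in that window. No such match was found for Thbs4, Sparc, Bgn or Cpxm1, and 3.11% of the 32851 promoters of that table hold one. On either strand of the 250 bases, the searched motifs were TATAAA (in 12.4% of all promoters), TATANA (22.6%), the AP-1 letters TGANTCA (6.75%), the TEAD letters GGAATG (12.6%), the homeodomain letters TAATTA (4.84%) and the E-box CAGCTG (13.0%). TATAAA is one form of TATANA, so these overlap. AP-1 and homeodomain letters were in none of the 7 genes' windows, GGAATG was on the opposite strand of Thbs4 at a pair of overlapping places, and CAGCTG was in Cilp, Sparc and Bgn. These are matches of letters in a window and not measured sites.

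Of the sorted and whole tumour libraries, some stood apart. Pleural whole tumours 3 and 5 held striated muscle transcripts. Summed over 7 heart markers, replicate 3 reached 5292 TPM, against at most 29.6 TPM in any other whole tumour. Over 13 skeletal muscle markers the pleural sum was 316 TPM in replicate 3 and 820 TPM in replicate 5, against 11.8 to 15.1 TPM in the other 4, 15.1 to 17.7 TPM in peritoneal and 81.6 to 1480 TPM in subcutaneous tumours. Among sorted cells, subcutaneous replicates 1 and 2 held 513 and 376 TPM of 8 leukocyte markers, against 16.5 to 96.0 TPM in the other 13 libraries, and pleural replicate 5 held 70.8 TPM of lung epithelial markers. Peritoneal sorted replicates 2 and 5 had the lowest Thbs1. Where leaving out these libraries ended a call, the value without them is given.

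In whole tumours Tnc and Postn were abundant under the skin and low at both serosal sites. Tnc was 81.8, 134, 112, 132 and 133 TPM in subcutaneous replicates 1 to 5. In peritoneal replicates 1, 2, 3, 4 and 7 it was 5.30, 6.79, 7.91, 7.80 and 4.42 TPM, and in the pleural tumours its lowest, median and highest values were 2.18, 3.04 and 8.56 TPM. Every subcutaneous tumour was above every serosal one, whereas peritoneal and pleural values overlapped. The means were 119 ± 22.5, 6.44 ± 1.54 and 4.32 ± 2.58 TPM, so the subcutaneous mean was 27.4 times the pleural (log2FC -4.59, SE 0.26) and 18.4 times the peritoneal mean (log2FC -4.01, SE 0.27).

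Postn was 154, 193, 154, 223 and 201 TPM in the subcutaneous tumours. Peritoneal tumours held 9.69, 13.2, 10.2, 10.4 and 10.7 TPM, and pleural tumours had a lowest value of 5.03, a median of 8.64 and a highest value of 75.1 TPM. Here too the subcutaneous group did not overlap either serosal group (pleural against subcutaneous log2FC -3.78, SE 0.49, peritoneal against subcutaneous log2FC -3.97, SE 0.51). The pleural spread came from the tumours with muscle transcripts, 75.1 TPM in replicate 3 and 21.6 TPM in replicate 5, while the other 4 lay between 5.03 and 9.43 TPM (mean 6.84 ± 2.18 TPM). Without those 2, the pleural mean of Tnc was 2.73 ± 0.435 TPM (n = 4), and the pleural against peritoneal difference of Postn turned from a log2FC of 0.18 to -0.63.

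**Figure D1:**
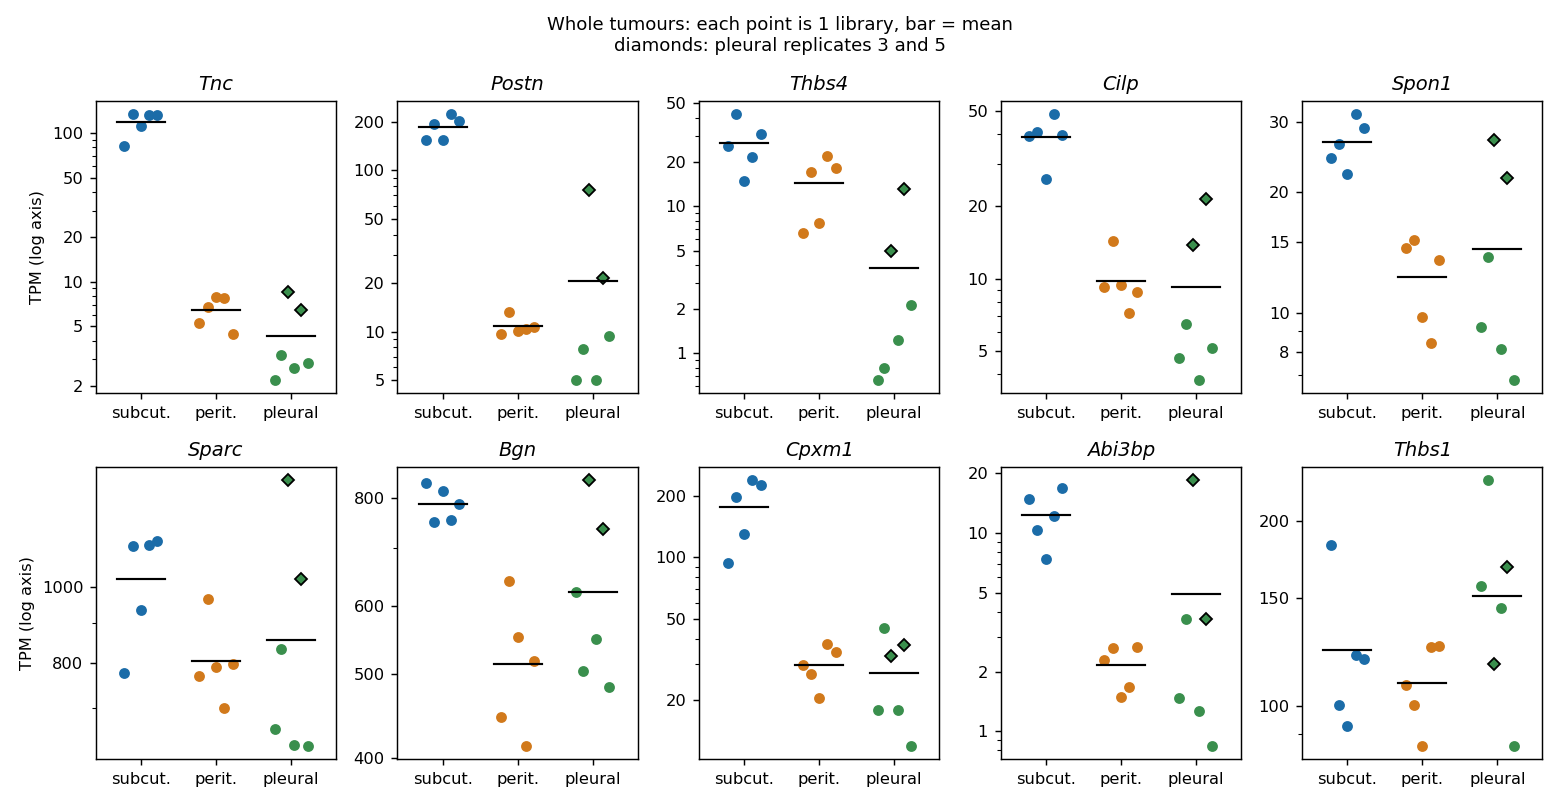
TPM of the 10 genes in each whole tumour (log axes) at the subcutaneous, peritoneal and pleural sites, with bars for means and diamonds for pleural replicates 3 and 5. Tnc lies between 81.8 and 134 TPM in subcutaneous tumours and at most at 8.56 TPM elsewhere, while Sparc, Bgn and Thbs1 differ far less between sites.

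The thrombospondins behaved unlike each other. Thbs4 was 25.6, 42.3, 14.8, 21.7 and 31.2 TPM in subcutaneous and 6.53, 17.1, 7.73, 21.9 and 18.3 TPM in peritoneal tumours, and these ranges overlapped (log2FC -0.93, SE 0.52). Pleural tumours were lower still, from 0.661 through a median of 1.69 to 13.2 TPM. The pleural group lay wholly below the subcutaneous one (log2FC -2.94, SE 0.50) and overlapped the peritoneal one only through replicate 5, at 13.2 TPM. Thbs4 was the member with the largest pleural against peritoneal difference in these tumours (log2FC -2.004, SE 0.50), and without replicates 3 and 5 its pleural mean was 1.21 ± 0.671 TPM.

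Thbs1 was the only member whose pleural mean, 151 ± 50.3 TPM, lay above its subcutaneous mean, 123 ± 35.7 TPM. It was 183, 100.04, 92.6, 121 and 119 TPM in subcutaneous and 108, 100.02, 85.99, 125 and 125 TPM in peritoneal tumours. Pleural values ran from 86.01 through 151 to 234 TPM. All 3 groups overlapped (pleural against subcutaneous log2FC 0.27, SE 0.21, peritoneal against subcutaneous log2FC -0.15, SE 0.22).

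Sparc and Bgn were the members with the highest levels, and their site differences were small. Sparc measured 777, 1125, 934, 1129 and 1141 TPM in subcutaneous, 769, 966, 789.7, 702 and 798 TPM in peritoneal and 627, 745 and 1367 TPM (lowest, median, highest) in pleural tumours, with all groups overlapping. Bgn measured 833, 750.3, 815, 755 and 787 TPM in subcutaneous tumours, above all peritoneal values of 446, 641, 552, 414 and 519 TPM (log2FC -0.63, SE 0.14). Its pleural values of 484, 586 and 839.7 TPM (lowest, median, highest) overlapped both, with the highest in replicate 3. Against subcutaneous tumours the pleural differences of Sparc (log2FC -0.30, SE 0.18) and Bgn (log2FC -0.37, SE 0.14) were small beside that of Tnc.

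Cilp and Cpxm1 followed Tnc with smaller differences. Cilp was 39.4, 41.1, 25.98, 48.6 and 39.7 TPM in subcutaneous, 9.23, 14.3, 9.40, 7.21 and 8.80 TPM in peritoneal and 3.78, 5.79 and 21.5 TPM (lowest, median, highest) in pleural tumours. The subcutaneous mean of Cpxm1, 177 ± 62.6 TPM, was 6.53 times the pleural mean of 27.1 ± 13.1 TPM and 5.94 times the peritoneal mean of 29.8 ± 6.65 TPM. Subcutaneous values of both genes lay above all serosal values, for Cpxm1 from 94.1 TPM upward against at most 45.1 TPM.

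Spon1 and Abi3bp were lower in all peritoneal than in all subcutaneous tumours, and overlapped in the pleural comparison. Spon1 was 24.4, 26.4, 22.3, 31.4 and 28.95 TPM in subcutaneous tumours, 14.5, 15.2, 9.79, 8.43 and 13.6 TPM in peritoneal tumours and 6.81, 11.5 and 27.1 TPM (lowest, median, highest) in pleural tumours. Abi3bp was 14.8, 10.4, 7.43, 12.2 and 16.9 TPM, 2.29, 2.62, 1.49, 1.67 and 2.67 TPM and 0.846, 2.57 and 18.6 TPM in the same order. The pleural overlap came from replicate 3 with 18.6 TPM for Abi3bp, and from replicate 3 with 27.1 TPM for Spon1. Without replicates 3 and 5 the pleural mean of Abi3bp was 1.81 ± 1.26 TPM and that of Spon1 was 9.49 ± 3.04 TPM.

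Over the 10 genes, 5 had pleural values wholly below the subcutaneous ones, among 1.93% of all 15054 tested genes, and 7 had peritoneal values wholly below them, among 3.47% of genes. No member separated pleural from peritoneal tumours, where 0.671% of genes were wholly lower and 0.465% wholly higher in pleural tumours. The median log2FC over the members was -1.93 for pleural against subcutaneous (0.067 over all genes), -1.49 for peritoneal against subcutaneous (0.067) and 0.059 for pleural against peritoneal (0.0033). The names were picked for differences of this kind, so these shares describe the choice. Both comparisons with subcutaneous tumours use the same 5 control libraries.

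By level, Sparc and Bgn headed the members at every site, at 1021 and 788 TPM in subcutaneous tumours. There Postn, Cpxm1, Thbs1 and Tnc followed between 119 and 185 TPM, each overlapping the next, although Postn and Tnc did not overlap, and then Cilp, Thbs4, Spon1 and Abi3bp between 12.4 and 38.9 TPM. Sparc and Bgn overlapped there, as did Cilp, Thbs4 and Spon1, whereas Tnc and Cilp, neighbours in that order, did not. In peritoneal tumours Thbs1 came next after Sparc and Bgn at 109 TPM, above Cpxm1 at 29.8 TPM, and Thbs4, Spon1, Postn, Cilp, Tnc and Abi3bp lay between 2.15 and 14.3 TPM, with values of neighbours overlapping except between Tnc and Abi3bp. The pleural order was the same for Sparc, Bgn, Thbs1 and Cpxm1, and by mean the last places were held by Tnc at 4.32 and Thbs4 at 3.83 TPM, whose values overlapped. This order depended on pleural replicates 3 and 5. Without them Abi3bp, at a mean of 1.81 TPM, lay below Tnc at 2.73 TPM, and Thbs4 was at 1.21 TPM.

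**Figure D2:**
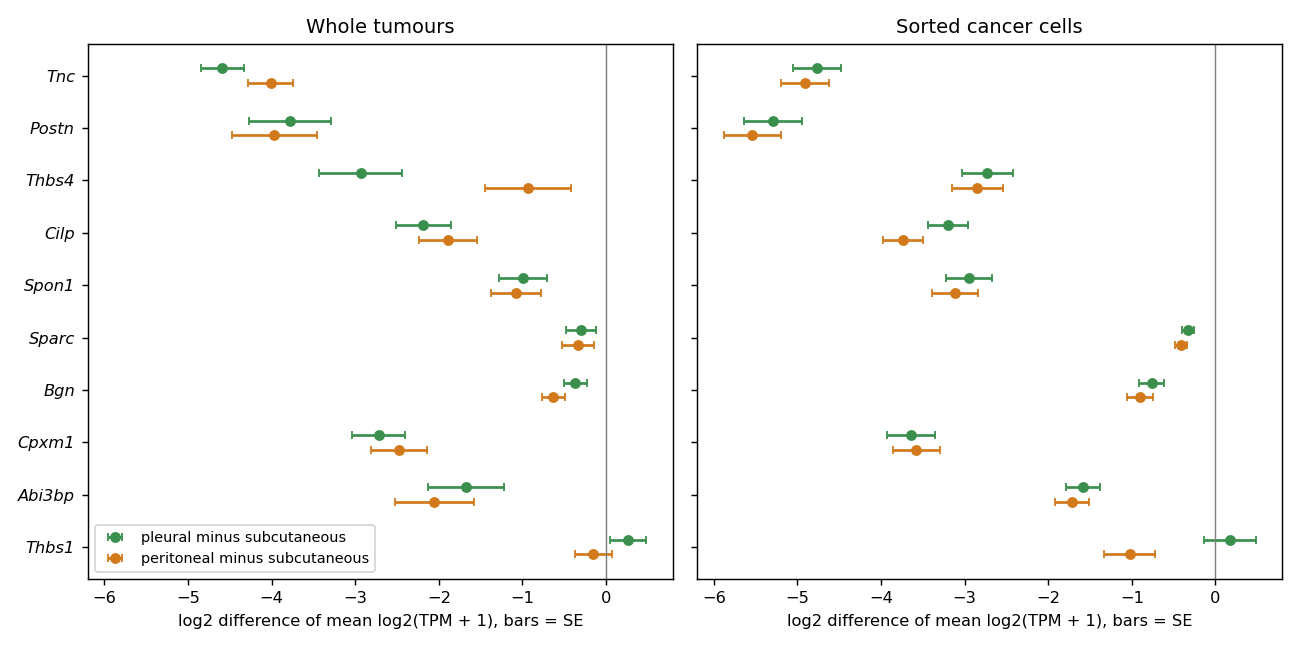
Difference in mean log2(TPM + 1) for the 10 genes, pleural minus subcutaneous and peritoneal minus subcutaneous, for whole tumours and for sorted cells, with error bars of 1 SE from the limma fits. Tnc and Postn lie furthest below 0 in both comparisons, and Thbs1 lies above 0 for pleural against subcutaneous samples of either kind.

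Host fibroblasts are a known source of many of these transcripts, so a list of 12 fibroblast markers was measured in the same libraries. Their summed level was 1975 to 2811 TPM in subcutaneous, 1399 to 2111 TPM in peritoneal and 1211 to 2869 TPM in pleural tumours, with the highest pleural sum in replicate 3, which also held 76.1 TPM of Dpt and 130.5 TPM of Pi16, both fibroblast markers. Of the 12 markers, 3 were lower in pleural than in subcutaneous tumours and 3 in peritoneal ones, and no marker was called higher by limma (adjusted p below 0.05). Of all genes, 3.4% were called lower in pleural and 3.64% in peritoneal tumours. Thy1, a surface glycoprotein of fibroblasts among other cells, fell from 170.0 ± 19.5 to 72.4 ± 22.6 TPM in pleural tumours (log2FC -1.27, adjusted p = 0.000779, SE 0.18). Pdgfra, a receptor of tissue fibroblasts, was 18.8 ± 3.77, 21.3 ± 2.88 and 19.3 ± 4.99 TPM at the subcutaneous, peritoneal and pleural sites (log2FC 0.022, adjusted p = 0.946, SE 0.16 for pleural against subcutaneous). None of the 12 markers had a mean of 0 at a site. In bulk RNA, fewer cells of a type and less RNA per cell cannot be told apart.

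Expressed as a share of the summed fibroblast markers, Tnc was 4.90 ± 0.498% in subcutaneous, 0.402 ± 0.130% in peritoneal and 0.225 ± 0.0654% in pleural tumours. Postn was 7.69 ± 0.514%, 0.662 ± 0.0516% and 0.922 ± 0.872% in the same order, and Cpxm1 was 7.16 ± 1.67%, 1.86 ± 0.578% and 1.46 ± 0.474%. Values of these 3 in subcutaneous tumours stayed above all serosal values on this scale. Sparc, at 42.4 ± 2.45%, 49.1 ± 2.40% and 47.1 ± 3.36%, was higher in each serosal group mean than in the subcutaneous one. Bgn gave 33.5 ± 6.87%, 31.3 ± 3.12% and 35.7 ± 7.21%. The differences in Tnc, Postn and Cpxm1 were thus larger than the difference in the fibroblast marker sum. Type I collagen genes Col1a1 and Col1a2 made up most of that sum at serosal sites. On average they were 419 and 740 of 1648 TPM in peritoneal and 492 and 841 of 1827 TPM in pleural tumours. Sorted pleural cells held them too, at 217 and 589 of 1042 TPM. The shares are therefore no measure relative to fibroblast content alone. Of the 12 markers, 10 were also listed in the sorted cells, and how much of their sum came from fibroblasts was not tested.

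**Figure D3:**
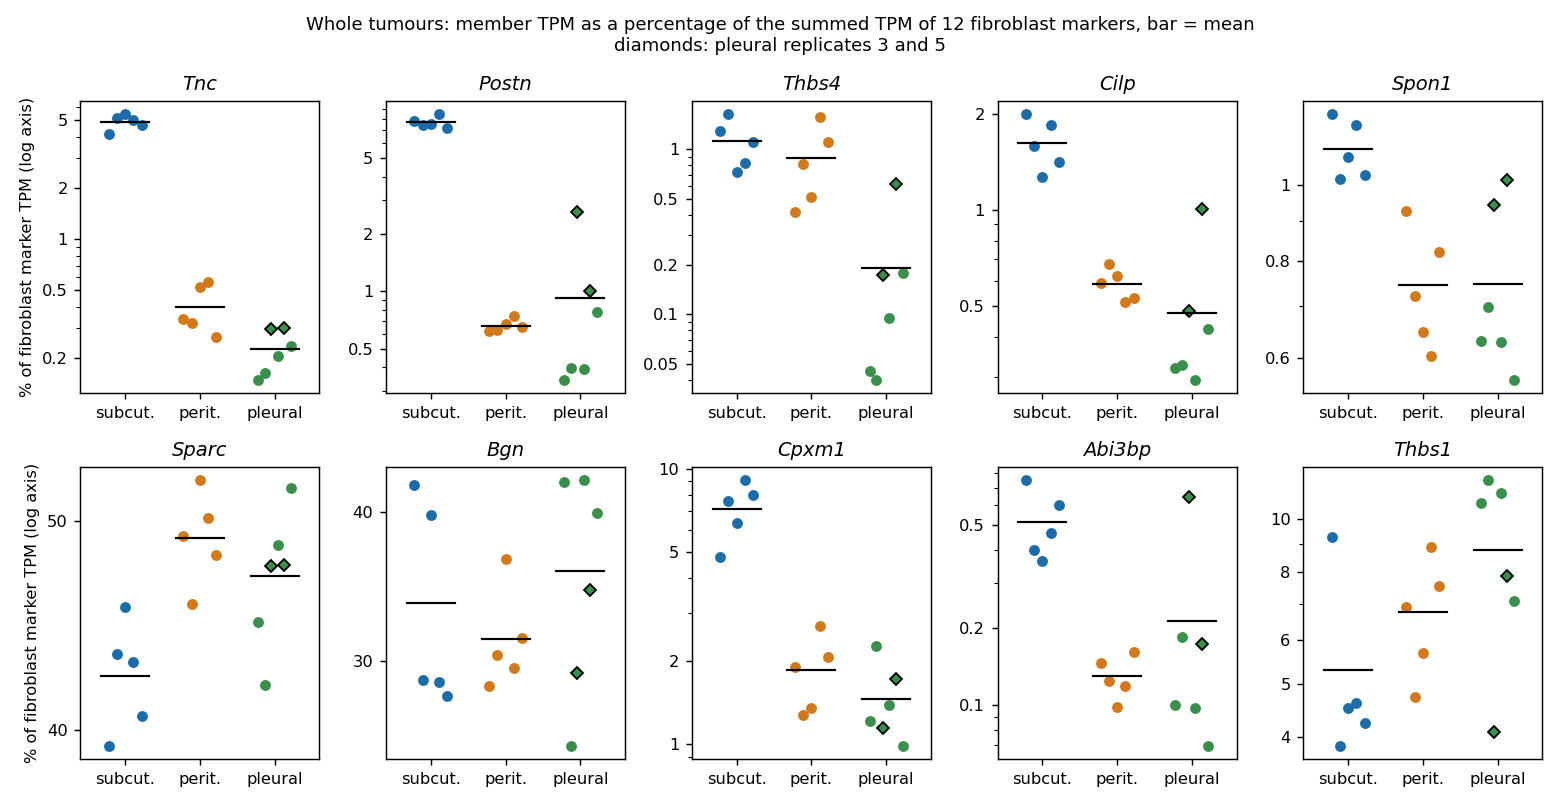
TPM of each gene as a percentage of the summed TPM of 12 fibroblast markers in the same whole tumour (log axes), by site, with bars for means and diamonds for pleural replicates 3 and 5. Tnc lies at 4.14 to 5.45% in subcutaneous and at most at 0.557% in serosal tumours, whereas Bgn overlaps at all sites.

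Other cell types moved with site as well. Of all genes, 9.4% were called higher and 3.4% lower in pleural, and 8.52% and 3.64% in peritoneal tumours. The 13 skeletal muscle markers, given above by library, counted 9 lower of 13 in pleural and 12 lower of 13 in peritoneal tumours. Myh4, a fast muscle myosin, was listed at 0 in every peritoneal tumour. Leukocyte markers summed to 1534 to 2109 TPM in subcutaneous, 989 to 1626 TPM in peritoneal and 1176 to 1851 TPM in pleural tumours, with 4 of 8 lower in peritoneal and 1 of 8 lower in pleural tumours. Platelet markers summed to 26.4 to 104.9 TPM in subcutaneous, 23.4 to 40.5 TPM in peritoneal and 9.31 to 23.4 TPM in pleural tumours, and platelets are a known store of thrombospondin 1. Mesothelial markers went the other way, with 5 of 7 tested called higher in pleural (median log2FC 0.99) and 6 of 7 higher in peritoneal tumours (median 1.50), while their summed level of 194 to 242 TPM in subcutaneous, 211 to 271 TPM in peritoneal and 197 to 303 TPM in pleural tumours overlapped. The line is itself a mesothelioma, so these markers do not tell host mesothelium from cancer cells. Among them, Msln was 166 ± 16.3, 241 ± 37.9 and 249 ± 64.4 TPM in sorted subcutaneous, peritoneal and pleural cells. Of the skeletal muscle markers 2 were listed in sorted cells, where they summed to 3.11 to 8.71 TPM in subcutaneous, 5.33 to 9.12 TPM in peritoneal and 4.70 to 7.14 TPM in pleural cells. The part of muscle, leukocytes, platelets and mesothelium in the members' differences was not tested.

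**Figure D4:**
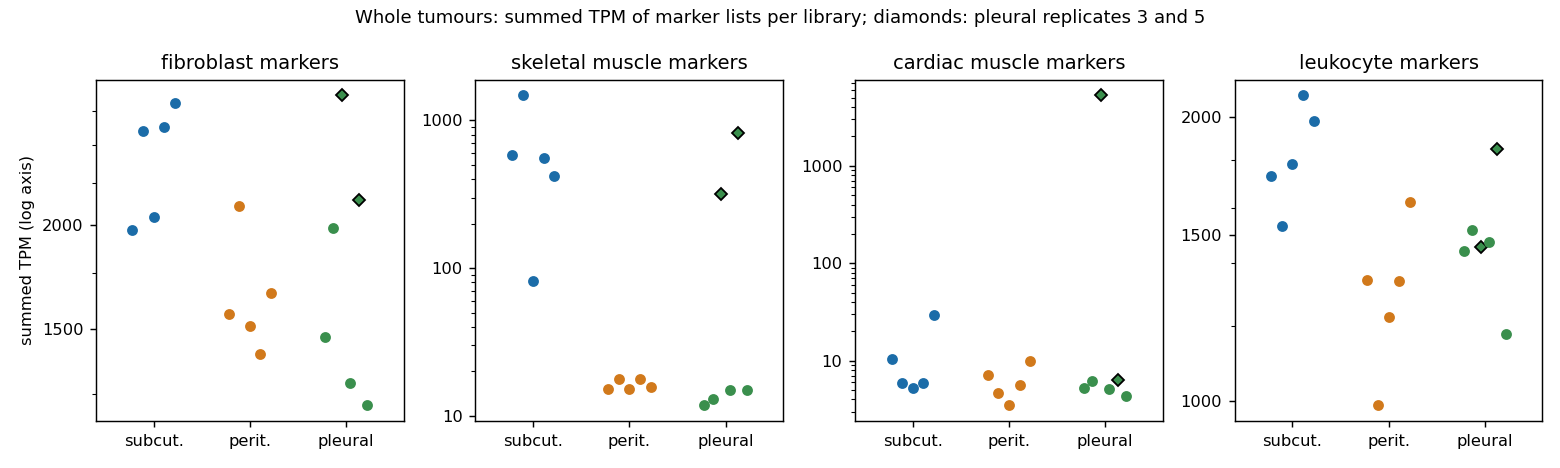
Summed TPM of the fibroblast, skeletal muscle, heart muscle and leukocyte marker lists in each whole tumour (log axes), by site, with diamonds for pleural replicates 3 and 5. Heart markers reach 5292 TPM in pleural replicate 3 and at most 29.6 TPM in any other tumour, and skeletal muscle markers are at 81.6 to 1480 TPM in subcutaneous tumours.

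Sorted cancer cells were examined to ask whether the members differed by site without most host cells. Under the skin, Tnc measured 94.5, 41.03, 51.5, 56.5 and 41.2 TPM in replicates 1 to 5. Peritoneal cells held 1.76, 0.198, 1.92, 0.613 and 0.346 TPM and pleural cells 0.576, 1.03, 0.538, 1.81 and 1.47 TPM. The highest serosal value, 1.92 TPM, was far below the lowest subcutaneous one, 41.0 TPM. The differences in mean log2(TPM + 1) were -4.77 for pleural and -4.91 for peritoneal against subcutaneous cells (SE 0.29 for both).

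Postn had the largest differences of the members, and was 157, 63.6, 77.9, 85.5 and 77.1 TPM in subcutaneous cells, 1.000, 0.398, 3.08, 0.843 and 0.183 TPM in peritoneal cells and 0.716, 0.941, 0.422, 2.62 and 2.45 TPM in pleural cells. The subcutaneous mean was 64.5 times the pleural mean (log2FC -5.29, SE 0.34) and 83.8 times the peritoneal mean (log2FC -5.54, SE 0.34). Tnc and Postn were each highest in subcutaneous replicate 1, which carried the most leukocyte RNA, and the lowest of the other 4 were 41.03 and 63.6 TPM.

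**Figure D5:**
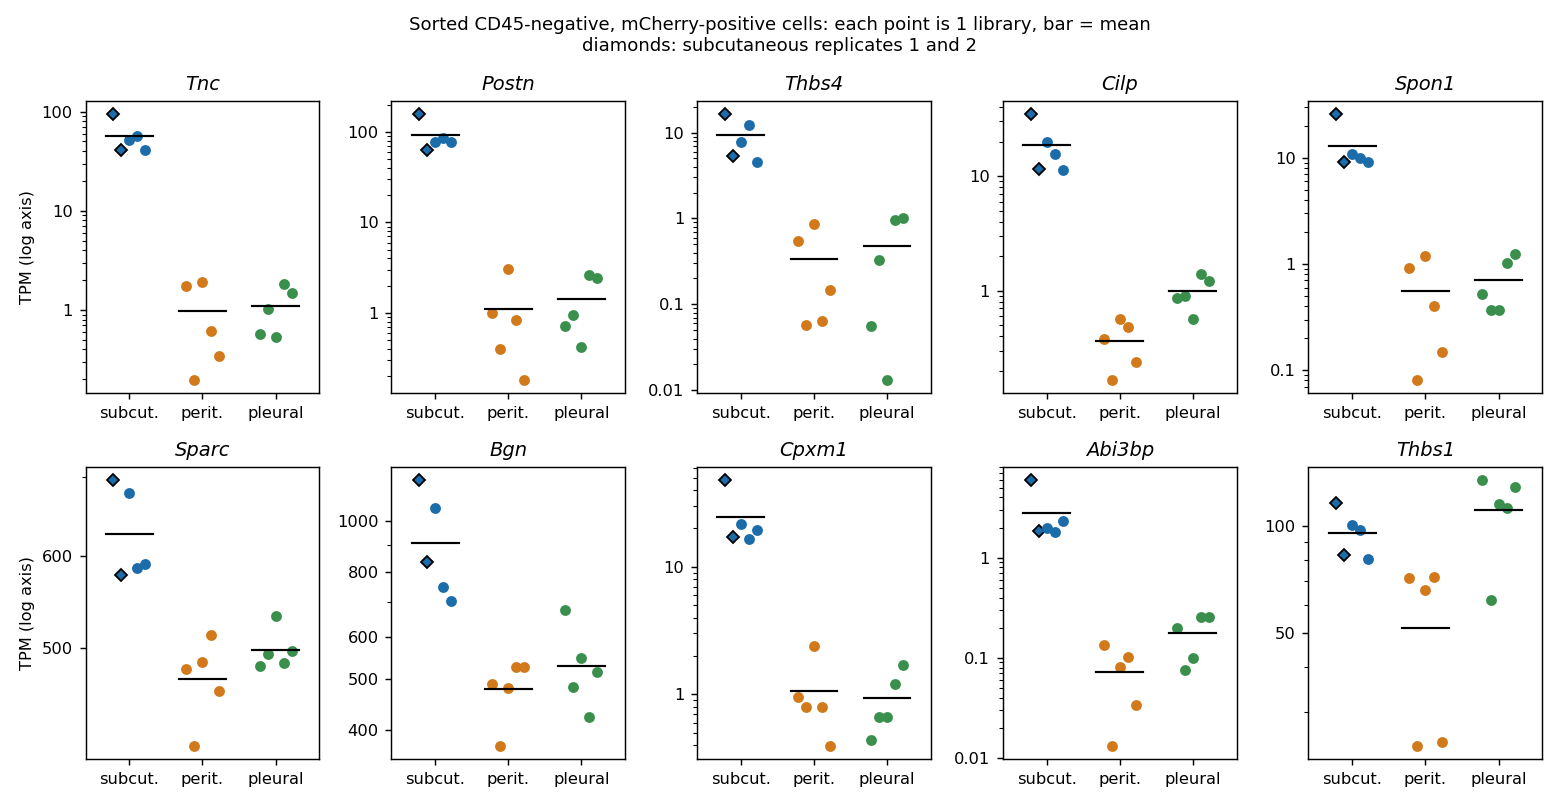
TPM of the 10 genes in each library of sorted CD45-negative, mCherry-positive cells (log axes), by site, with bars for means and diamonds for subcutaneous replicates 1 and 2. For Tnc, Postn, Thbs4 and Cilp the lowest subcutaneous value is 4.60 TPM and the highest serosal value is 3.08 TPM.

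Cilp, Cpxm1, Spon1, Thbs4 and Abi3bp were also lower at both serosal sites. Cilp was 34.8, 11.6, 19.9, 15.5 and 11.3 TPM in subcutaneous, 0.379, 0.167, 0.5684, 0.480 and 0.239 TPM in peritoneal and 0.859, 0.903, 0.572, 1.41 and 1.21 TPM in pleural cells (log2FC -3.20, SE 0.24 for pleural and log2FC -3.73, SE 0.24 for peritoneal against subcutaneous). Cpxm1 was 48.1, 17.2, 21.6, 16.5 and 19.4 TPM in subcutaneous cells against 0.949, 0.797, 2.39, 0.796 and 0.396 TPM in peritoneal and 0.440, 0.662, 0.659, 1.21 and 1.71 TPM in pleural cells (log2FC -3.58 and -3.64, SE 0.29 for both). All subcutaneous values of both genes exceeded all serosal ones. All 5 pleural values of Cilp also lay above all peritoneal ones, from 0.572 TPM upward against at most 0.5684 TPM (log2FC 0.53, SE 0.24).

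Spon1 went from 12.98 ± 7.21 TPM in subcutaneous cells to 0.551 ± 0.492 TPM in peritoneal and 0.703 ± 0.400 TPM in pleural cells (log2FC -3.11 and -2.95, SE 0.28 for both). Thbs4 was 16.4, 5.32, 7.68, 12.4 and 4.60 TPM in subcutaneous cells, 0.546, 0.0576, 0.853, 0.0633 and 0.147 TPM in peritoneal cells and 0.0552, 0.331, 0.0132, 0.950 and 1.02 TPM in pleural cells. Its subcutaneous values lay above all others (log2FC -2.85, SE 0.31 for peritoneal and log2FC -2.73, SE 0.31 for pleural cells). Sorted peritoneal cells thus held under 1 TPM of Thbs4, whereas peritoneal whole tumours held 6.53 to 21.9 TPM. The 2 kinds of sample were normalized separately and were not tested against each other. Abi3bp, the scarcest member, was 5.99, 1.83, 1.96, 1.79 and 2.33 TPM in subcutaneous cells and at most 0.256 TPM in any serosal library (log2FC -1.72, SE 0.20 for peritoneal and log2FC -1.59, SE 0.20 for pleural cells).

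Sparc and Bgn remained abundant in the cells of all sites, with lower serosal levels. Sparc was 696, 577, 679, 585 and 589 TPM in subcutaneous, 480.1, 413, 487, 513 and 459.7 TPM in peritoneal and 483, 494, 533, 485 and 497 TPM in pleural cells. The groups did not overlap subcutaneous cells, and the differences were small (log2FC -0.41, SE 0.072 for peritoneal and log2FC -0.32, SE 0.072 for pleural cells). Bgn was 1196, 833, 1056, 748 and 702 TPM in subcutaneous, 489, 373, 480.4, 527 and 526 TPM in peritoneal and 676, 483, 548, 422 and 516 TPM in pleural cells, with every subcutaneous value above every serosal one (log2FC -0.90, SE 0.15 for peritoneal and log2FC -0.76, SE 0.15 for pleural cells). When subcutaneous replicates 1 and 2, the libraries with leukocyte RNA, were both left out, the pleural log2FC was -0.65 for Bgn and -0.31 for Sparc.

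Thbs1 was low in peritoneal cells and had its highest mean in pleural cells. It was 116, 82.8, 100.3, 97.4 and 80.8 TPM in subcutaneous, 71.4, 24.1, 66.1, 71.8 and 24.7 TPM in peritoneal and 135, 61.8, 115, 112 and 129 TPM in pleural cells. Peritoneal values lay below all subcutaneous ones and overlapped pleural replicate 2. The pleural mean was 2.14 times the peritoneal mean (log2FC 1.20, SE 0.31). Against subcutaneous cells the peritoneal difference was a log2FC of -1.03 (SE 0.31) and the pleural one 0.17 (SE 0.31), with pleural and subcutaneous values overlapping. The peritoneal level rested in part on replicates 2 and 5, at 24.1 and 24.7 TPM. Without them the pleural against peritoneal log2FC was 0.61 and that of peritoneal against subcutaneous was -0.43.

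Of the 10 members, 9 had pleural values wholly below the subcutaneous ones, as 2.04% of all 12357 tested genes had, and 10 had peritoneal values wholly below them, as 5.04% had. Only Cilp separated the serosal sites, wholly higher in pleural cells, as 3.6% of genes were. By the threshold used for other genes, limma's adjusted p below 0.05, the counts were 9 lower in pleural (1.25% of genes) and 10 lower in peritoneal cells (6.33%), and 1, Thbs1, higher in pleural than in peritoneal cells (4.45%). Without subcutaneous replicates 1 and 2 the first 2 of these counts were 7 and 9. The members' median log2FC was -2.84 for pleural and -2.98 for peritoneal against subcutaneous cells, beside -0.022 and -0.028 over all genes, and 0.14 for pleural against peritoneal cells, beside 0.0041. As in whole tumours, these counts describe the choice of names. Abi3bp reached 1 TPM in no serosal library. Postn, Cpxm1, Spon1, Cilp and Thbs4 reached it in fewer serosal libraries than the 5 that the filter asks for. All of these members thus entered the fit only through the subcutaneous cells, where they were high.

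Fibroblast markers were measured in the sorted cells too. The 10 markers listed there summed to 1274 to 2082 TPM in subcutaneous, 718 to 1190 TPM in peritoneal and 917 to 1271 TPM in pleural cells. Of these, 6 were lower in pleural and 7 in peritoneal than in subcutaneous cells, where 1.25% and 6.33% of all genes were called lower. Thy1 fell from 45.8 ± 19.3 TPM to 4.11 ± 3.37 TPM in peritoneal (log2FC -3.35, adjusted p = 3.38e-05, SE 0.37) and 2.74 ± 0.610 TPM in pleural cells (log2FC -3.57, adjusted p = 2.83e-05, SE 0.37). Col15a1, a basement membrane collagen, fell from 41.2 ± 16.9 TPM to 4.78 ± 4.30 and 5.12 ± 2.09 TPM. Pdgfra was 12.2 ± 3.58, 7.12 ± 3.13 and 9.90 ± 2.69 TPM and passed in neither comparison with subcutaneous cells (adjusted p = 0.0771 and 0.82). Markers of pericytes (4 listed) summed to 14.9 to 29.2 TPM in subcutaneous against at most 14.4 TPM in serosal libraries, and those of endothelium (5 listed) to 18.4 to 32.02 TPM in subcutaneous and 3.25 to 21.5 TPM in serosal cells. The part of these cell types in the members' site differences within the sorted fraction was not tested.

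Genes related to the members by protein family, receptor or pathway were counted in 6 lists, none of which holds a member. Among 32 related matricellular genes, 22 were tested in whole tumours. In pleural tumours 2 were higher and 2 lower than in subcutaneous tumours, where 9.4% of all genes were called higher and 3.4% lower. Fn1, encoding fibronectin, rose from 733 ± 36.3 to 981 ± 109.7 TPM (log2FC 0.41, adjusted p = 0.00897, SE 0.086), and Ccn2, encoding connective tissue growth factor, rose from 90.8 ± 23.6 to 137 ± 27.7 TPM (log2FC 0.59, adjusted p = 0.0196, SE 0.15, lost without subcutaneous replicate 2 with adjusted p = 0.0629). Lgals1, which encodes galectin 1, fell (log2FC -0.21, adjusted p = 0.0183, SE 0.051). Its call was lost without subcutaneous replicate 2 (adjusted p = 0.0589), without a filter (0.0525), with replicate number as a block (0.0651) and with quantile normalization. Tnn, which encodes tenascin W, a close relative of tenascin C, was named after its values were seen. It was 2.31 ± 1.36 TPM in subcutaneous, 0.103 ± 0.123 TPM in peritoneal and 0.0540 ± 0.0231 TPM in pleural tumours. Only subcutaneous tumours reached 1 TPM, so it entered the fit through the group where it was high, and its values are a description.

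In peritoneal tumours 1 related matricellular gene was higher, Fn1 (log2FC 0.43, adjusted p = 0.00864, SE 0.090), and 2 were lower, Tnn and Tgfbi. Tgfbi, which encodes a TGF-β-induced adhesion protein of the same fasciclin family as periostin, fell from 241 ± 22.8 to 133 ± 27.7 TPM (log2FC -0.88, adjusted p = 0.00519, SE 0.17). Over all genes 8.52% were called higher and 3.64% lower. The list's median log2FC was -0.21 in pleural and -0.19 in peritoneal tumours. Between the serosal sites only Ccn2 was called, higher in pleural tumours (log2FC 0.88, adjusted p = 0.0455, SE 0.15; 0.0266% of genes were higher), and that call was lost in 12 of 16 fits that left out 1 library (adjusted p up to 0.193) and without pleural replicates 3 and 5 together (adjusted p = 0.0636).

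In sorted cells 17 of the related matricellular genes were tested. In pleural cells 1 was higher and 5 lower than in subcutaneous cells (0.397% and 1.25% of all genes were), with a median of -0.24. Sparcl1, a relative of Sparc, fell from 20.1 ± 5.16 to 9.36 ± 1.70 TPM (log2FC -1.01, adjusted p = 0.00277, SE 0.17). Fbln2, encoding fibulin 2, fell from 71.6 ± 20.9 to 32.99 ± 16.5 TPM (log2FC -1.16, adjusted p = 0.0287, SE 0.26), a call lost in 7 of 15 fits that left out 1 library (adjusted p up to 0.0878) and without subcutaneous replicates 1 and 2 together (log2FC -1.05, adjusted p = 0.198). In peritoneal cells 5 were called, all lower (median -0.31, where 6.33% of genes were called lower and 4.75% higher), with Fbln2 at 20.00 ± 2.66 TPM (log2FC -1.75, adjusted p = 0.00064, SE 0.26) and Sparcl1 at 9.05 ± 1.69 TPM (log2FC -1.06, adjusted p = 0.00103, SE 0.17). Ccn2 moved in the opposite direction. Pleural cells held 298 ± 254 TPM against 68.1 ± 18.6 in subcutaneous (log2FC 1.81, adjusted p = 0.0204, SE 0.38) and 69.3 ± 13.9 TPM in peritoneal cells (log2FC 1.76, adjusted p = 0.0128, SE 0.38). The call against subcutaneous cells was lost without subcutaneous replicate 2 or 5 or pleural replicate 5 (adjusted p up to 0.0632), and without subcutaneous replicates 1 and 2 together (log2FC 1.76, adjusted p = 0.143). Thbs3, a thrombospondin, was lower in pleural than in peritoneal cells (log2FC -0.58, adjusted p = 0.0335, SE 0.16, 5.51% of genes called lower), and 6 of 15 fits that left out 1 library lost it (adjusted p up to 0.0892), as did leaving out peritoneal replicates 2 and 5 (log2FC -0.47, adjusted p = 0.139).

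Small leucine-rich proteoglycans other than biglycan were counted in the same way. In whole tumours 10 of 16 were tested, and limma called 0 in pleural against subcutaneous tumours (median log2FC -0.17), with 1 higher and 3 lower at an unadjusted p below 0.05. In peritoneal tumours 1 rose and 1 fell (median -0.38), and 3 were higher and 5 lower at an unadjusted p below 0.05. Of all genes, limma called 8.52% higher and 3.64% lower in peritoneal, and 9.4% and 3.4% in pleural tumours. Podn, encoding podocan, fell from 7.04 ± 1.96 to 1.81 ± 1.19 TPM (log2FC -1.56, adjusted p = 0.0259, SE 0.42, lost in 6 of 16 fits without 1 library), and Kera, encoding keratocan, rose from 0.933 ± 0.811 to 5.25 ± 4.46 TPM (log2FC 1.54, adjusted p = 0.0373, SE 0.45, lost in 7 of 16). Among 8 tested in sorted cells, Aspn, encoding asporin, fell in peritoneal cells from 39.8 ± 13.4 to 13.8 ± 4.90 TPM (log2FC -1.45, adjusted p = 0.00374, SE 0.27), Podnl1 rose there (log2FC 0.56, adjusted p = 0.0145, SE 0.13, lost without subcutaneous replicates 1 and 2 with log2FC 0.55 and adjusted p = 0.0561), and limma called 0 in pleural against subcutaneous cells (median 0.0065), with 1 higher and 2 lower at an unadjusted p below 0.05. Of all genes, limma called 4.75% higher and 6.33% lower in peritoneal, and 0.397% and 1.25% in pleural cells. The share of all genes at an unadjusted p below 0.05 was not counted, so counts at that threshold cannot be called many or few.

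Receptors of the members were tested for 17 of 20 genes in whole tumours, and 1 was higher and 2 lower in pleural tumours (median -0.043), 1 higher and 4 lower in peritoneal tumours (median -0.16). Of all genes, 9.4% were called higher and 3.4% lower in pleural, and 8.52% and 3.64% in peritoneal tumours. Sdc1, encoding the heparan sulphate proteoglycan syndecan 1, had the largest fall in pleural tumours, from 89.6 ± 9.01 to 50.5 ± 5.37 TPM (log2FC -0.81, adjusted p = 1.33e-05, SE 0.079), and was 54.3 ± 3.74 TPM in peritoneal tumours (log2FC -0.71, adjusted p = 0.000109, SE 0.082). The innate receptor gene Tlr2 fell in peritoneal tumours (log2FC -0.78, adjusted p = 0.0162, SE 0.19). Integrin genes Itga4 (log2FC 0.53 for pleural and 0.52 for peritoneal against subcutaneous) and Itgb3 (log2FC -0.49 for pleural) passed in the fit of all libraries, and at least 7 of 16 fits without 1 library lost each of these calls. Without pleural replicates 3 and 5 the pleural difference of Itga4 was 0.43 (adjusted p = 0.1). In sorted cells 14 receptors were tested, and against subcutaneous cells 1 was called in pleural (median -0.22) and 4 in peritoneal cells (median -0.43), all lower. Of all genes, 1.25% and 6.33% were called lower there. Itgb5, an integrin subunit that pairs with αv and binds periostin, was 139 ± 26.2 TPM in subcutaneous, 89.03 ± 9.93 TPM in peritoneal (log2FC -0.63, adjusted p = 0.0107, SE 0.14) and 80.99 ± 15.01 TPM in pleural cells (log2FC -0.77, adjusted p = 0.00668, SE 0.14). Without subcutaneous replicates 1 and 2 together these Itgb5 differences were -0.53 and -0.68 and passed no longer (adjusted p = 0.06 and 0.0856), and without peritoneal replicates 2 and 5 the peritoneal one was -0.54 (adjusted p = 0.0621). In pleural against peritoneal cells 3 receptors were higher, as were 4.45% of all genes. Among the 3 were Sdc4, encoding syndecan 4 (log2FC 0.68, adjusted p = 0.00589, SE 0.12), and Itga5, a fibronectin receptor subunit (log2FC 0.79, adjusted p = 0.0205, SE 0.19, lost without peritoneal replicate 2 with adjusted p = 0.0594 and without peritoneal 2 and 5 with log2FC 0.54 and adjusted p = 0.11).

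The TGF-β pathway, known to induce Tnc and Postn in fibroblasts, was measured by 22 genes. In whole tumours 2 were higher and 2 lower in pleural (median 0.06), and 2 higher and 3 lower in peritoneal tumours (median -0.04). Of all genes, 9.4% were called higher and 3.4% lower in pleural, and 8.52% and 3.64% in peritoneal tumours. Smad3, a signal transducer, rose at both sites (log2FC 0.54, adjusted p = 0.0174, SE 0.13 for pleural, log2FC 0.58, adjusted p = 0.0151, SE 0.14 for peritoneal), and so did the ligand gene Tgfb3 (log2FC 0.46, adjusted p = 0.017, SE 0.11; log2FC 0.44, adjusted p = 0.0253, SE 0.12). The ligand gene Tgfb1 fell from 79.8 ± 5.58 to 62.5 ± 7.54 TPM in pleural tumours (log2FC -0.35, adjusted p = 0.0127, SE 0.080), and the receptor gene Tgfbr2 fell at both sites (log2FC -0.36, adjusted p = 0.0381, SE 0.11; log2FC -0.44, adjusted p = 0.0223, SE 0.11). Nrros, whose product anchors latent TGF-β on myeloid cells, was lower in peritoneal tumours (adjusted p = 0.0488). Pleural Smad3 and pleural Tgfb3 were lost without subcutaneous replicate 2 (adjusted p up to 0.0554), peritoneal Tgfb3 without subcutaneous or peritoneal replicate 2 (up to 0.0697), and peritoneal Tgfbr2 without subcutaneous replicate 4 or 5 (up to 0.0554). Pleural Tgfbr2 was lost in 6 of 16 and Nrros in 11 of 16 fits without 1 library, and Nrros also without pleural replicates 3 and 5 (adjusted p = 0.0509).

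In sorted cells 20 pathway genes were tested. Against subcutaneous cells 8 were called in peritoneal cells (median -0.46) and 1 in pleural cells (median -0.20), all lower, where 6.33% and 1.25% of all genes were called lower. Against peritoneal cells 5 were called in pleural cells, all higher (median 0.21), where 4.45% of all genes were. Over all genes, too, more calls were made in comparisons with peritoneal cells, 1369 against subcutaneous and 1231 against pleural cells, than between pleural and subcutaneous cells, 203. The inhibitory Smad7 was lower in peritoneal than in subcutaneous cells (log2FC -1.76, adjusted p = 0.00605, SE 0.36), and the SMAD repressor gene Skil was higher in pleural than in peritoneal cells (log2FC 1.74, adjusted p = 0.0103, SE 0.35). Thbs1 had its lowest values in the same peritoneal cells. Without peritoneal replicates 2 and 5, 5 pathway genes were called in peritoneal against subcutaneous and 1 in pleural against peritoneal cells, and the call of Smad7 was lost (adjusted p = 0.0502).

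Among 12 mesenchymal transcription factors 9 were tested in whole tumours, and Prrx2 was the 1 called at each serosal site, lower in pleural (log2FC -0.41, adjusted p = 0.00886, SE 0.085) and in peritoneal tumours (log2FC -0.40, adjusted p = 0.011, SE 0.089). Of all genes, 3.4% and 3.64% were called lower at these sites. The list's medians were 0.13 and -0.032. In sorted cells Osr2 was lower in peritoneal than in subcutaneous cells (log2FC -0.65, adjusted p = 0.00747, SE 0.14), Srf was higher in pleural than in peritoneal cells (log2FC 0.63, adjusted p = 0.0292, SE 0.17, lost in 4 of 15 fits without 1 library and without peritoneal replicates 2 and 5 with log2FC 0.44 and adjusted p = 0.144), and of 8 tested limma called 0 in pleural against subcutaneous cells (median -0.032), with 2 lower at an unadjusted p below 0.05. Against subcutaneous cells, 6.33% of all genes were called lower in peritoneal cells. In pleural cells 0.397% were called higher and 1.25% lower. Between the serosal sites 4.45% were called higher in pleural cells. The share of all genes at an unadjusted p below 0.05 was not counted.

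Of 9 fibrillar collagen genes 7 were tested in both tables. Col5a3, a chain of type V collagen, fell at both serosal sites in both kinds of sample. In whole tumours it was 45.8 ± 11.01 TPM in subcutaneous, 15.1 ± 5.24 TPM in peritoneal (log2FC -1.56, adjusted p = 0.000256, SE 0.20) and 14.8 ± 2.59 TPM in pleural tumours (log2FC -1.55, adjusted p = 0.000215, SE 0.19). In sorted cells it was 29.9 ± 6.17, 9.66 ± 3.40 (log2FC -1.58, adjusted p = 0.000262, SE 0.21) and 13.9 ± 2.21 TPM (log2FC -1.04, adjusted p = 0.0151, SE 0.21, lost without subcutaneous replicate 1 with adjusted p = 0.0532 and without subcutaneous 1 and 2 with log2FC -0.96 and adjusted p = 0.125). Col11a1 was higher in pleural than in subcutaneous tumours (log2FC 0.55, adjusted p = 0.0114, SE 0.12). Col1a1, the main chain of type I collagen, fell in sorted cells from 389 ± 96.8 to 205 ± 35.3 TPM in peritoneal (log2FC -0.91, adjusted p = 0.00144, SE 0.15) and 217 ± 20.1 TPM in pleural cells (log2FC -0.81, adjusted p = 0.00714, SE 0.15). In all, 2 collagens were called in pleural tumours, 1 in each direction, and those called in peritoneal tumours (1), pleural cells (2) and peritoneal cells (5) were all lower, with medians of -0.18, -0.23, -0.43 and -0.58. Of all genes, 3.4%, 3.64%, 1.25% and 6.33% were called lower in the same order, and 9.4% higher in pleural tumours.

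The genes whose profile was nearest to those of Tnc and Postn over the 16 whole tumours were sought among all tested genes, by the mean absolute difference of log2(TPM + 1) after centring each gene on its own mean. For Tnc the nearest was Postn, at 0.42, and for Postn it was Tnc. Crabp1 followed for Tnc at 0.67, with 33.5 ± 16.9 TPM in subcutaneous, 0.0799 ± 0.0632 in peritoneal and 0.330 ± 0.225 TPM in pleural tumours. Zfp969, Lrrc15 and Rarres2 came next, at 0.71, 0.71 and 0.74. Lrrc15, known as a marker of myofibroblast-like cells in tumour stroma, was 6.55 ± 0.405 TPM in subcutaneous, 0.0309 ± 0.0188 in peritoneal and 0.0683 ± 0.0386 TPM in pleural tumours. Rarres2, encoding the chemoattractant chemerin, was 366 ± 107 TPM in subcutaneous tumours, 51.3 ± 5.66 in peritoneal and 51.2 ± 22.3 TPM in pleural tumours. For Postn, Cthrc1 at 0.65, Fibin at 0.67, Myh4 at 0.74 and Lrrc15 at 0.78 followed. Cthrc1, a secreted protein of collagen-producing fibroblasts, was 18.3 ± 6.75, 1.74 ± 0.869 and 4.40 ± 5.77 TPM in the same order. The libraries share their sites, so this likeness describes the site pattern and carries no test.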

How the data were processed

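RNA of AB1-mCherry tumours (16 whole tumour libraries) and of mCherry-positive cells without CD45 from such tumours (15 libraries) was sequenced as 50 bp single-end reads, and the RNA kits differed between both kinds of sample, per the labels' protocols. The authors deposited TPM values per gene, made with kallisto on GRCm39 per the submitters' processing notes, whose version is not given in the sources used here. Nor do those sources state its annotation, gene-level summing or filters. Whole tumour libraries sum to 1000000 TPM, and sorted libraries to 996124 to 998055 TPM over 12461 entries, of which 17 with calendar dates in place of a symbol were left out. From 14148 to 14880 genes per whole tumour and 11557 to 12213 per sorted library reached 1 TPM. Read depth is unknown, since TPM does not keep it.

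In R 4.3.3, limma 3.58.1 (trend option) was fitted to log2(TPM + 1), all 3 sites of a table together. A gene entered when 5 libraries or more held 1 TPM or more of it, which left 15054 genes in whole tumours and 12357 in sorted cells. Benjamini-Hochberg adjustment ran over every gene in a comparison, and an adjusted p below 0.05 was a call. The scripts were tested on simulated data. The members and lists were chosen with earlier results of these data known. A test of the members in sorted cells was planned, but the choice may have used those values and most mouse names are shared with whole tumours, so only counts past the threshold are given for them, as a description. Genes named beside the members were, in each list and comparison, up to 2 called genes per direction with the largest log2FC among those reaching 5 TPM on average at the higher site, the 5 nearest profiles of Tnc and of Postn, and markers that a result touches. A gene that this rule also names is not reported here. Mice of a group are separate, so p-values measure the spread between mice. Settings changed in turn were the pseudocount (0.1), the filter (none, or 5 TPM), scaling (median-of-ratios, or quantile normalization), the sites fitted (only the 2 compared), robust empirical Bayes, the replicate number as a block, the fibroblast list (without Col1a1 and Col1a2) and the libraries (each left out once). Further fits were added after seeing the data, which left out pleural tumours 3 and 5, subcutaneous sorted libraries 1 and 2, or peritoneal sorted libraries 2 and 5.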

Additional observations from a re-analysis of the deposited data

Results flagged for a closer look

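In 11 of 60 groups of values (10 genes at 3 sites in both kinds of sample), the highest sample stood far from the others by Dixon's criterion. Its rate of about 1 in 20 holds for independent groups of normally distributed values. Here TPM was not log-transformed and the genes share libraries, so the rate by chance is unknown. In pleural whole tumours these were Postn at 75.1 TPM in replicate 3 (next 21.6 TPM), Abi3bp at 18.6 TPM in replicate 3 (next 3.70 TPM) and Thbs4 at 13.2 TPM in replicate 5 (next 4.95 TPM). Replicate 3 is the tumour with 5292 TPM of heart markers and replicate 5 the tumour with 820 TPM of skeletal muscle markers. Both also had the highest pleural sums of pericyte and smooth muscle markers (281 and 137 TPM, the other 4 at 42.6 to 77.2 TPM) and of tendon and cartilage markers (12.5 and 6.45 TPM, the other 4 at 0.576 to 1.56 TPM).

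Sorted subcutaneous replicate 1, the library with 513 TPM of leukocyte markers, was far above the other 4 for Tnc at 94.5 TPM, Postn at 157 TPM, Spon1 at 25.8 TPM, Cpxm1 at 48.1 TPM and Abi3bp at 5.99 TPM. Replicate 2, with 376 TPM of leukocyte markers, was not high for these genes. Sorted peritoneal replicate 3 was high for Postn at 3.08 TPM and Cpxm1 at 2.39 TPM, and sorted pleural replicate 3 was high for Sparc at 533 TPM. What sets these samples apart was not tested.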

How the results depend on the processing

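Each member's difference between serosal and subcutaneous whole tumours kept its sign in the alternatives that were run, except Thbs1 in peritoneal tumours without subcutaneous replicate 1 (log2FC 0.0017). Between the serosal tumours the sign of Postn turned without pleural replicates 3 and 5 (-0.63), and those of Spon1 (-0.35), Sparc (-0.23) and Abi3bp (-0.24) turned with it. Leaving out 1 library, the members' median log2FC in whole tumours ran from -2.23 to -1.76 for pleural and -1.59 to -1.41 for peritoneal against subcutaneous, and from -0.22 to 0.18 for pleural against peritoneal. The median log2 difference of the ratios to fibroblast markers ran from -2.01 to -1.67, -1.07 to -0.96 and -0.21 to -0.0089 for the same comparisons. In sorted cells 8 to 9, 9 to 10 and 0 to 1 members were called. Between the serosal sites a pseudocount of 0.1 called 2 members, and 0 were called with only the 2 sites compared or without peritoneal replicates 2 and 5, in each case against 1. There the direction turned for genes without a call. Leaving out 1 library, Tnc ran from -0.013 (without peritoneal replicate 2) to 0.31, Thbs4 from -0.0089 (without pleural replicate 5) to 0.25 and Cpxm1 from -0.20 to 0.13 (without peritoneal replicate 3; 0.032 without pleural replicate 1). Without peritoneal replicates 2 and 5 the values were -0.21 for Tnc, -0.13 for Postn, -0.038 for Thbs4 and -0.12 for Spon1. The cause was not tested.

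Calls over all 6 related lists in whole tumours were 14 for pleural and 17 for peritoneal against subcutaneous and 1 between serosal sites. Of all 15054 genes, 1927, 1831 and 8 were called in the same order. For the lists, leaving out 1 library gave 8 to 25, 10 to 25 and 0 to 2. Without pleural replicates 3 and 5 the list counts were 26, 26 and 0. Without a filter 10 were called in peritoneal tumours. Named calls lost without a filter were pleural Lgals1, Itga4, Itgb3 and Tgfbr2, and peritoneal Kera, Podn, Itga4, Tgfb3, Nrros and Tgfbr2. The replicate block lost the same calls except pleural Itgb3. With only the 2 sites compared, pleural Itga4, Itgb3 and Tgfbr2 and peritoneal Nrros were lost. In sorted cells that fit lost Ccn2 and Fbln2 for pleural against subcutaneous and Itga5 for pleural against peritoneal cells. The 1 call between serosal sites became 0 with a pseudocount of 0.1, no filter, a filter of 5 TPM, median-of-ratios scaling or robust empirical Bayes. In sorted cells the counts were 10, 25 and 11, and leaving out 1 library gave 6 to 13, 18 to 29 and 5 to 12. Median-of-ratios scaling called 18 and quantile normalization 17 between serosal sites. Without subcutaneous replicates 1 and 2 the first 2 counts were 4 and 16, and without peritoneal replicates 2 and 5 the last 2 were 14 and 3. In the main fit of sorted cells, 203, 1369 and 1231 of all 12357 genes were called. All-gene counts under the other settings are not given. A general shift in calls can therefore not be told from a shift in the lists.

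Mouse names differ between sites, so a shared replicate number does not name a shared mouse. Within whole tumours and within cells, deviations of same-numbered samples from their site means correlated at -0.377 to 0.349 over the comparisons. Differently numbered samples were not set beside them, so whether equal numbers share handling was not tested. The numbers are those of the mouse names, which for 3 peritoneal whole tumours differ from the library names. With the number as a replicate block, 10 related genes were called in peritoneal against subcutaneous tumours and 0 between serosal tumours, and 9, 10 and 1 members in sorted cells. Depth is unknown, so low values such as those of Abi3bp in serosal cells have no stated precision beyond their spread.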
